A study of Mus musculus with 8 samples.

Results

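The genes described here encode 10 neuropeptide precursors of the mouse brain, namely the opioid precursors Penk, Pdyn and Pnoc, the tachykinin precursors Tac1 and Tac2, the peptides of cortical interneurons Sst, Cort, Cck and Vip, and the neurotensin precursor Nts. They were chosen by name, and all 10 were among the 22430 genes listed and among the 16730 genes that passed the filter on low counts. RNA was taken from brain hemispheres of 8 male C57Bl/6JRj mice, 4 aged 6 months (6m, young adult) and 4 aged 24 months (24m), and the labels give no genotype, treatment or other difference between the ages. The mice were bought as a wild-type inbred substrain and each library came from a separate animal, so replicates are biological. Polyadenylated RNA was made into directional libraries and sequenced, and reads were counted per gene. Levels are given as counts per 1000000 (CPM), scaled by the trimmed mean of M-values (TMM), and changes as the log2 fold change of 24m over 6m (log2FC) with its standard error.

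Neuropeptides are made as long precursors that are cut by convertases in the secretory pathway, trimmed, often amidated, and released from dense-core vesicles to act on G protein-coupled receptors. In the striatum, Penk marks projection neurons of the indirect pathway, and Tac1 and Pdyn those of the direct pathway. Sst, Cort and Vip mark classes of inhibitory interneurons in cortex and hippocampus, whereas Cck is made both by interneurons and by many excitatory neurons.

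The precursors differ in how many active peptides they hold. In the coding sequence of the GENCODE canonical transcript, the enkephalin core (the 4 residues shared by the opioid peptides) was found 7 times in Penk and 3 times in Pdyn, and the related core of nociceptin once in Pnoc. The tachykinin core was found 2 times in Tac1, the precursor of substance P and neurokinin A, and once in Tac2, the precursor of neurokinin B. Sst and Cort share the core of their mature peptides, and the coding bases of this core are shown because the levels of both genes moved closely together. The Sst core lies on chr16:23708482-23708517 and the Cort core on chr4:149209727-149209762, both on the minus strand of GRCm39 and both in coding exons, with capitals at the bases that differ.
Sst: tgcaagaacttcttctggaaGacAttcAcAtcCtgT
Cort: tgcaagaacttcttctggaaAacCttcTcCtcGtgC
Of the 36 bases 6 differed (83.3% identity), and 1 of the 12 encoded residues differed.

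Several of these genes are textbook targets of CREB, a factor that is activated by cAMP and calcium and binds the CRE motif. Promoters from RefSeq (GRCm38.p6, from 250 bases before to 50 bases after the start) were matched for 8 of the 10 genes, and Penk and Pnoc had no entry. The whole CRE, TGACGTCA, was found in Sst and in 1.79% of all 32851 promoters, and its half-site, TGACG on either strand, in 6 of the 8 and in 20.8% of all promoters. The whole motif holds the half-site on both strands. The AP-1 motif TGANTCA was found in Nts and in 7.81% of all promoters. The 30 bases around the half-site nearest to the start are shown for the 6 promoters that hold it, with the motif in capitals.
Sst: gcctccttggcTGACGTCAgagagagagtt
Cort: tccggcttgtgCGTCAccgcgtgagtgtgg
Cck: ctgctggactgCGTCAgcactgggtaaaca
Vip: gatcactactgTGACGtctttcggggagcc
Tac1: ctctacaggctCGTCAcgcctgagataaat
Nts: ttagggaagatCGTCActttccatcaaggt
On GRCm38.p6 these windows are chr16:23890874-23890903, chr4:149126763-149126792, chr9:121495723-121495752 (all minus strand), chr10:5639128-5639157 and chr6:7555007-7555036 (plus strand), and chr10:102490566-102490595 (minus strand). The motif began 48 bases before the start in Sst, 18 in Cort, 47 in Cck, 79 in Vip, 43 in Tac1 and 166 in Nts. A match describes these letters and is not evidence of binding, and no half-site was found in the windows of Pdyn and Tac2.

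Library totals ran from 63460940 to 103462414 counts. Their difference between ages did not pass the test (exact permutation test, two-sided, p = 0.0857, with 0.0286 the smallest p that 4 against 4 allows). This does not show that totals were equal. TMM factors separated the ages, from 0.887 to 0.957 at 6m and from 1.001 to 1.132 at 24m. The share of counts from mitochondrially encoded genes was 6.07% ± 0.56 (SD, n = 4) at 6m and 3.33% ± 0.24 (SD, n = 4) at 24m. With mitochondrially encoded genes left out, 7 of the 10 precursors were called lower, as with them, beside 18.3% of tested genes. The median log2FC of the 10 was -0.83 in that setting. No other part of this difference in the results on peptides was tested. No library pair agreed within sampling noise, and 24m replicate 1, the deepest library, stood apart: its chi-square per degree of freedom over genes was 181 to 424 against the other 24m libraries, which had 13 to 61.4 among themselves. Without it, 21.9% of tested genes were called lower and 27.8% higher, the same 7 precursors were called lower, and the median log2FC of all 10 was -0.86. In bulk tissue, fewer cells of a type and less RNA per cell cannot be told apart, and this holds for every level given here.

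Of the 10 precursors, 7 fell in the aged brain (Penk, Pnoc, Tac2, Sst, Cort, Cck and Nts), none rose, and Pdyn, Tac1 and Vip were not called. The count depended on the length trend. With the trend of change on total exon length removed, 3 were called lower (Pnoc, Sst and Cck) and the median log2FC was -0.48. Genes were called at an adjusted p of at most 0.05 and an absolute log2FC of at least 0.58 in edgeR's quasi-likelihood test with Benjamini-Hochberg adjustment. Of the precursors above 0, Pdyn alone had an unadjusted p under 0.05 (0.0312), and DESeq2 and limma-voom also called 0 higher. Over all tested genes 18.3% were called lower, 25.3% higher and 43.6% in either direction. Without that removal the median log2FC of the 10 was -0.83, with a range from -1.24 to 0.23, against -0.0034 over all tested genes. All 24m libraries lay below all 6m libraries in 8 of the 10 genes, against 26.8% of all tested genes, and above them in 1, Pdyn, against 28.4%.

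**Figure D1:**
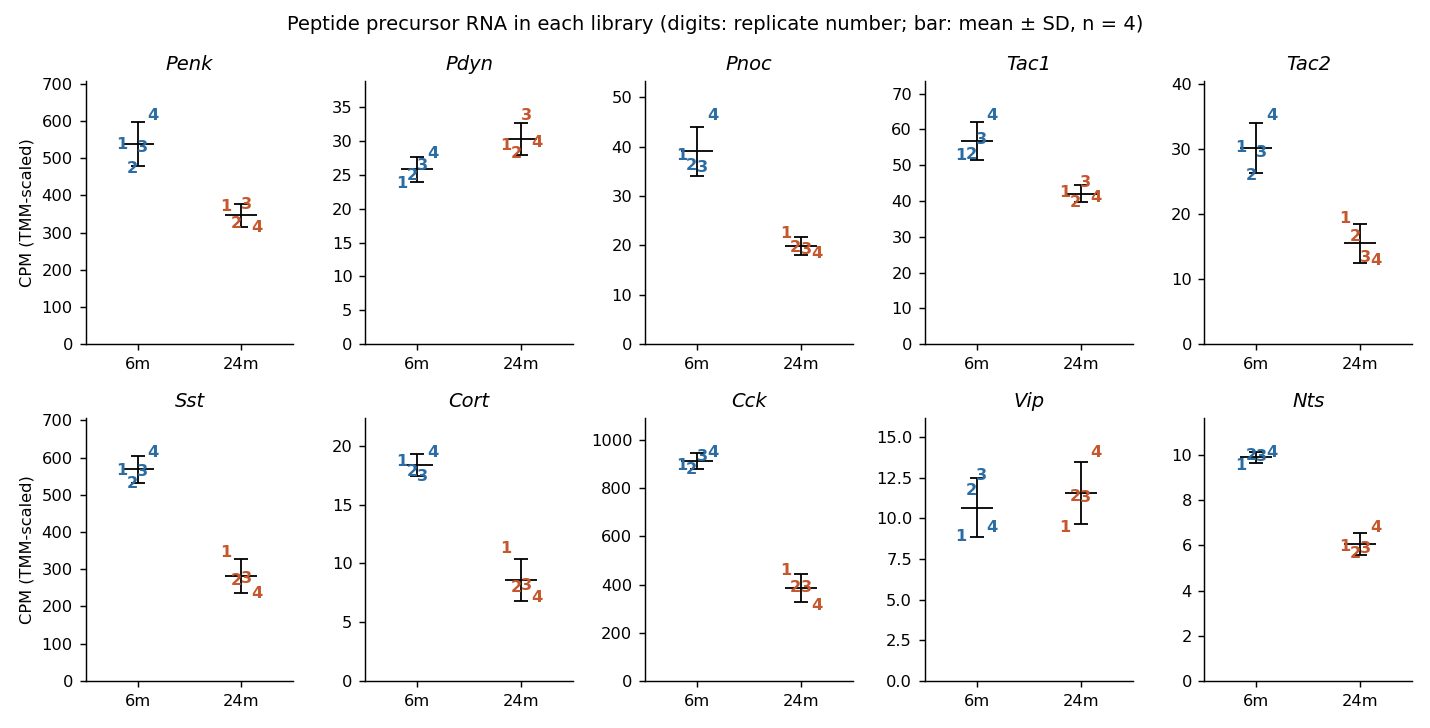
TMM-scaled CPM of each precursor (y axis, from 0) in the 4 libraries of 6m and the 4 of 24m, with digits for replicate numbers and bars for the mean ± SD. The ages are separate in 9 panels and overlap for Vip, and the 24m digits lie above the 6m digits only for Pdyn.

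Among the opioid precursors, Penk, the enkephalin precursor (GRCm39 chr4:4132722-4141856, minus strand), had 538, 473, 528 and 615 CPM in 6m replicates 1 to 4 and 370, 325, 377 and 312 CPM in 24m replicates 1 to 4. No 24m library reached the lowest 6m library, which was replicate 2. Penk fell by 0.64 ± 0.11 on the log2 scale (edgeR quasi-likelihood test, adjusted p = 0.000724), with a ratio of CPM means of 0.643. The call was lost under the fold threshold with DESeq2 on quantile-normalized counts (log2FC -0.32), with library totals alone (-0.42), with the length trend removed (-0.51) and without 6m replicate 4, the highest library (-0.57).

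Pnoc, the nociceptin precursor (chr14:65638122-65663196, minus strand), had 38.3, 36.1, 35.7 and 46.3 CPM at 6m and 22.5, 19.5, 19.2 and 18.4 CPM at 24m. The ages did not overlap, and the 6m libraries spread mainly through replicate 4. Pnoc fell by 0.97 ± 0.11 on the log2 scale (edgeR, adjusted p = 0.000119). Pdyn, the dynorphin precursor (chr2:129528469-129541945, minus strand), had 23.7, 24.9, 26.3 and 28.1 CPM at 6m and 29.3, 28.2, 33.8 and 29.8 CPM at 24m. The lowest 24m library lay just above the highest 6m library. Its log2FC of 0.23 ± 0.09 was under the fold threshold (edgeR, adjusted p = 0.0498), and the adjusted p ran from 0.00284 to 0.362 over the alternatives tried.

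Of the tachykinin precursors, Tac2 (chr10:127560347-127567638, plus strand) had 30.2, 25.9, 29.5 and 35.2 CPM at 6m and 19.3, 16.6, 13.4 and 12.9 CPM at 24m. The 24m libraries varied more than most, with a coefficient of variation of 19.2%, and still lay below every 6m library. Tac2 fell by 0.96 ± 0.15 on the log2 scale (edgeR, adjusted p = 0.00052), but with the length trend removed its log2FC was -0.48, under the fold threshold. Tac1 (chr6:7554120-7565834, plus strand) had 52.7, 52.9, 57.3 and 64.0 CPM at 6m and 42.5, 39.7, 45.1 and 41.0 CPM at 24m. The ages did not overlap, and its log2FC of -0.43 ± 0.09 (edgeR, adjusted p = 0.00246) passed the adjusted p and not the fold threshold.

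With TMM scaling, Cck, Cort and Sst had the most negative log2FC of the 10, but the order changed with the processing: Cort, Tac2, Pnoc and Nts came before Cck and Sst with DESeq2 on quantile-normalized counts, and Cck, Sst and Pnoc led with the length trend removed. Sst, somatostatin (chr16:23707321-23711733, minus strand), had 566, 530, 562 and 615 CPM at 6m and 344, 271, 276 and 234 CPM at 24m. Every 24m library was below every 6m library, and 24m replicate 1 was the nearest to them. Sst fell by 1.01 ± 0.12 on the log2 scale (edgeR, adjusted p = 0.000133). Cort, cortistatin, a peptide related to somatostatin (chr4:149209491-149211266, minus strand), had 18.7, 17.8, 17.4 and 19.5 CPM at 6m and 11.2, 7.91, 8.08 and 7.13 CPM at 24m. As for Sst, 24m replicate 1 stood highest among the aged libraries. Cort fell by 1.09 ± 0.14 on the log2 scale (edgeR, adjusted p = 0.00023), but with the length trend removed its log2FC was -0.48, under the fold threshold.

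Cck, cholecystokinin (chr9:121315695-121324863, minus strand), was the most abundant of the 10 by CPM, with 896, 880, 931 and 951 CPM at 6m and 458, 390, 387 and 314 CPM at 24m. The 6m libraries lay within a coefficient of variation of 3.54% and the 24m libraries within 15.1%. Cck fell by 1.24 ± 0.11 on the log2 scale (edgeR, adjusted p = 4.89e-05), which ranked it among the lowest 2.24% of tested genes by log2FC. Vip, vasoactive intestinal peptide (chr10:5589186-5599956, plus strand), had 8.87, 11.7, 12.7 and 9.41 CPM at 6m and 9.45, 11.3, 11.3 and 14.1 CPM at 24m. The ages overlapped, and the log2FC of 0.11 ± 0.16 did not pass the test (edgeR, adjusted p = 0.544), which does not show that its level was equal. Its sign depended on the processing.

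Nts, the neurotensin precursor (chr10:102317614-102326396, minus strand), was the lowest by mean CPM, with 9.53, 9.98, 9.95 and 10.1 CPM at 6m and 5.97, 5.67, 5.88 and 6.80 CPM at 24m. In 6m replicates 1 and 4 Vip was lower, at 8.87 and 9.41 CPM. The Nts values rest on 454 to 706 counts per library. The 6m libraries were nearly alike, and no 24m library came close to them. Nts fell by 0.70 ± 0.10 on the log2 scale (edgeR, adjusted p = 0.000364). With the length trend removed its log2FC was -0.11 and the adjusted p 0.552, so the call did not hold there, nor with library totals alone (log2FC -0.48), and over all alternatives the adjusted p ran from 8.67e-23 to 0.552.

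All 10 coding sequences were shorter than the median of tested genes, 1365 bases, and 9 of the 10 genes had less total exon length than the median of 5768 bases. The length trend was fitted on total exon length, and a trend on canonical transcript length was not tried. These lengths can differ widely: Vip had 8693 bases of exon and 1567 in its canonical transcript. With the length trend removed, the 3 of 10 called lower stood beside 20.5% of all tested genes, whose median log2FC was -0.096. With library totals alone in place of TMM, 5 were called lower, beside 10.4% of all tested genes, whose median moved to 0.21. With the trend on GC content removed 8 were called lower, Tac1 being added, beside 22.2% of all tested genes. Genes on the opposite strand overlap Penk and Cck, and whether counting used strand was not stated.

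**Figure D2:**
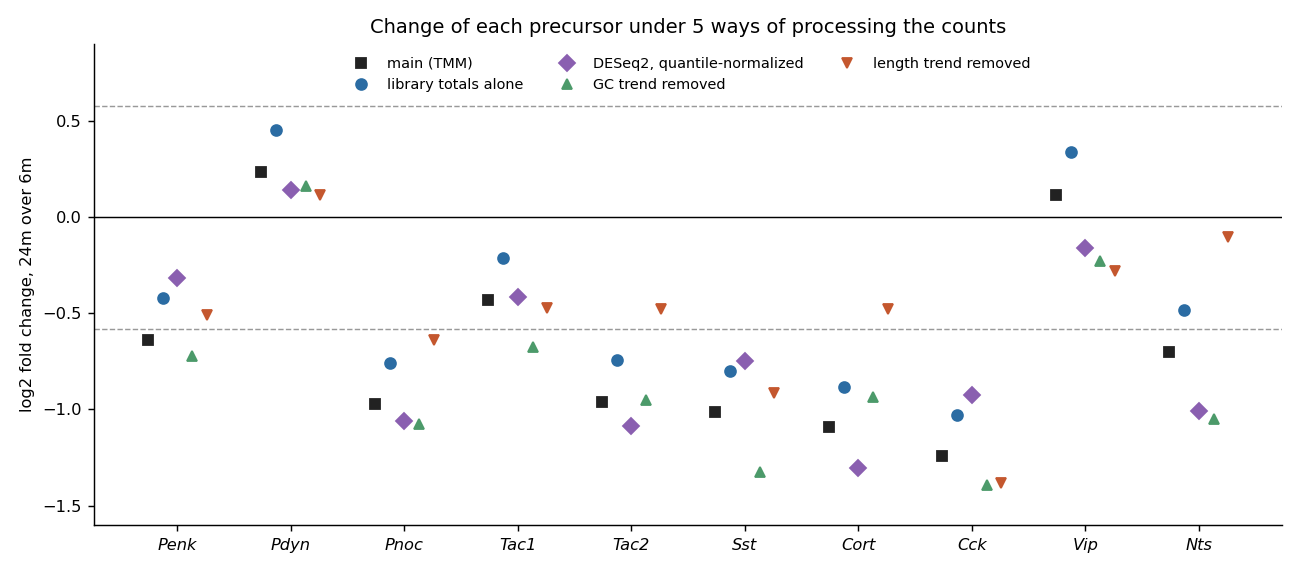
Log2FC of 24m over 6m (y axis) for each precursor under 5 ways of processing the counts, with dashed lines at the fold threshold of 0.58 in each direction. Cck, Sst and Pnoc lie below the lower line under each of the 5, whereas Vip changes sign and Nts approaches 0 when the length trend is removed.

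Compared per length of exon, the 10 genes spanned from 168 CPM per kilobase for Cck to 1.23 for Vip at 6m. Cck (167.5 ± 5.9, SD), Sst (156.5 ± 9.7) and Penk (154.4 ± 16.8) led the order at 6m, and neighbours in it overlapped in range. Cort followed at 25.4 ± 1.3 CPM per kilobase, then Tac2 and Pnoc, which overlapped each other, and then Tac1, Nts, Pdyn and Vip, each below the gene before it. At 24m Penk came first with 99.3 ± 9.2 CPM per kilobase, before Sst (77.5 ± 12.6) and Cck (70.9 ± 10.8), and again each overlapped its neighbour. The order depended on the length used: with the canonical transcript length, Sst came first at both ages.

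**Figure D3:**
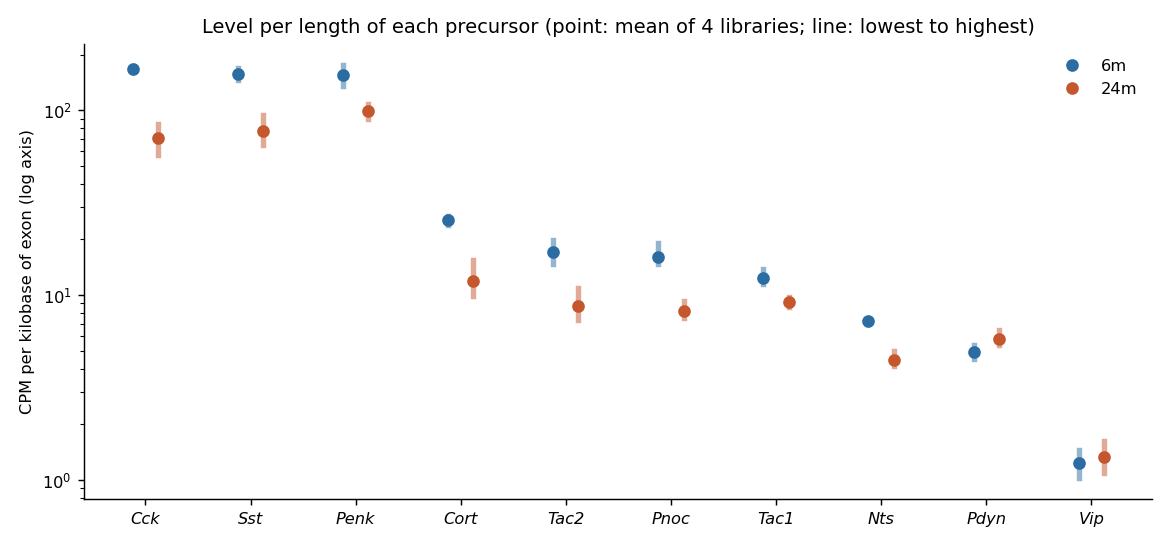
Level of each precursor in CPM per kilobase of exon (log axis), with points for the mean of 4 libraries and lines from the lowest to the highest library of 6m and 24m. Cck, Sst and Penk lie well above the rest at both ages, and Pdyn and Vip are the genes whose 24m point lies above the 6m point.

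Within an age, libraries varied together for some peptides. Over the 8 libraries, each centred on its age mean, log2 CPM of Sst correlated with that of Cort (Pearson's r = 0.955) and of Cck (r = 0.954), and Pdyn with Tac1 (r = 0.907). Vip went the opposite way to Sst (r = -0.779) and Cort (r = -0.777). These are descriptions over 8 libraries that share depth and TMM factors, and many genes are as close: among the 10890 tested genes whose mean reached 5 CPM, those most like Sst were Trp53, Prss36 and Dpp3 (r = 0.997 each), those most like Cck were Car11, Nrgn and Selplg (r from 0.99 to 0.998), and those most like Tac1 were Dnm2, Adgrb1 and D2hgdh (r from 0.956 to 0.973).

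**Figure D4:**
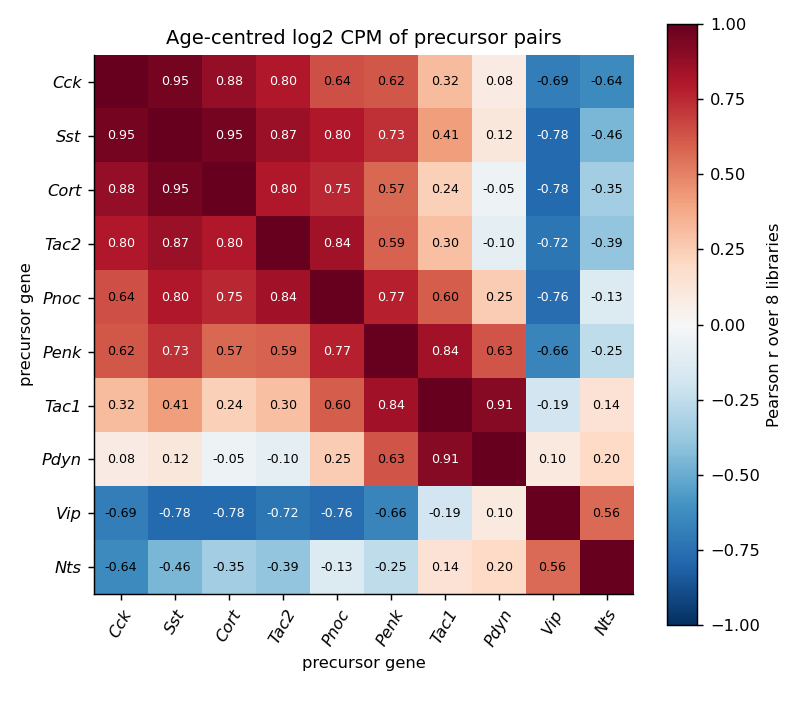
Pearson's r of log2 CPM, centred on the mean of each age, for each pair of precursors (both axes) over 8 libraries. Cck, Sst, Cort, Tac2 and Pnoc have r from 0.642 to 0.955 with each other, Penk, Tac1 and Pdyn have r from 0.626 to 0.907, and Vip is negative with each gene except Pdyn and Nts. Penk also has r from 0.574 to 0.774 with Cck, Sst, Cort, Tac2 and Pnoc, so these sets are not separate.

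The receptors of these peptides went mostly the other way. Of 19 receptor genes, 12 rose, 1 fell (Ntsr2) and 6 were not called, with a median log2FC of 0.81 against the -0.83 of the precursors, where 25.3% of all tested genes were called higher and 18.3% lower. Oprd1, the delta opioid receptor bound by enkephalins, went from 0.745 ± 0.123 CPM (SD, n = 4) at 6m to 3.54 ± 1.36 at 24m, with a log2FC of 2.24 ± 0.29 (edgeR, adjusted p = 0.000229). Oprm1, the mu receptor, went from 0.594 to 1.53 CPM (log2FC 1.36 ± 0.31, edgeR, adjusted p = 0.00362), on 34 to 190 counts per library. For the tachykinins, Tacr1, the substance P receptor, rose by 1.88 ± 0.32 (edgeR, adjusted p = 0.000921). These receptor levels were low, and 24m replicate 1 was the lowest of the aged libraries for Oprd1, Oprm1 and Tacr1.

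Among the somatostatin receptors, Sstr1, Sstr3, Sstr4 and Sstr5 rose with log2FC of 1.70, 0.81, 2.16 and 0.71, while Sstr2, the most abundant of them, went from 19.8 to 14.5 CPM (log2FC -0.46 ± 0.12, edgeR, adjusted p = 0.00762), under the fold threshold. Of the cholecystokinin receptors Cckar and Cckbr neither was called. Vipr1 rose by 0.75 ± 0.16 (edgeR, adjusted p = 0.0029). Vipr1 and Sstr3 were under the fold threshold with quantile-normalized counts in DESeq2 (log2FC 0.40 and 0.49) and with the length trend removed (0.56 each), and Sstr5 was not called in the first of these settings, where Sstr2 was the receptor called lower. For neurotensin, Ntsr2 fell by 0.72 ± 0.10 (edgeR, adjusted p = 0.000324), from 285 to 172 CPM, whereas Ntsr1 rose by 0.98 ± 0.13 (adjusted p = 0.000291), and Sort1, a sorting receptor that also binds neurotensin, rose by 2.35 ± 0.18 (adjusted p = 2.42e-05). The count of receptors higher was 14 with library totals alone, 9 with quantile-normalized counts in DESeq2 and 10 with the length trend removed. Of all tested genes, 32.6%, 21.4% and 19.4% were called higher in those 3 settings. Ntsr2 was not called in any of the 3, with the GC trend removed, or with the replicate block and the length trend removed together.

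**Figure D5:**
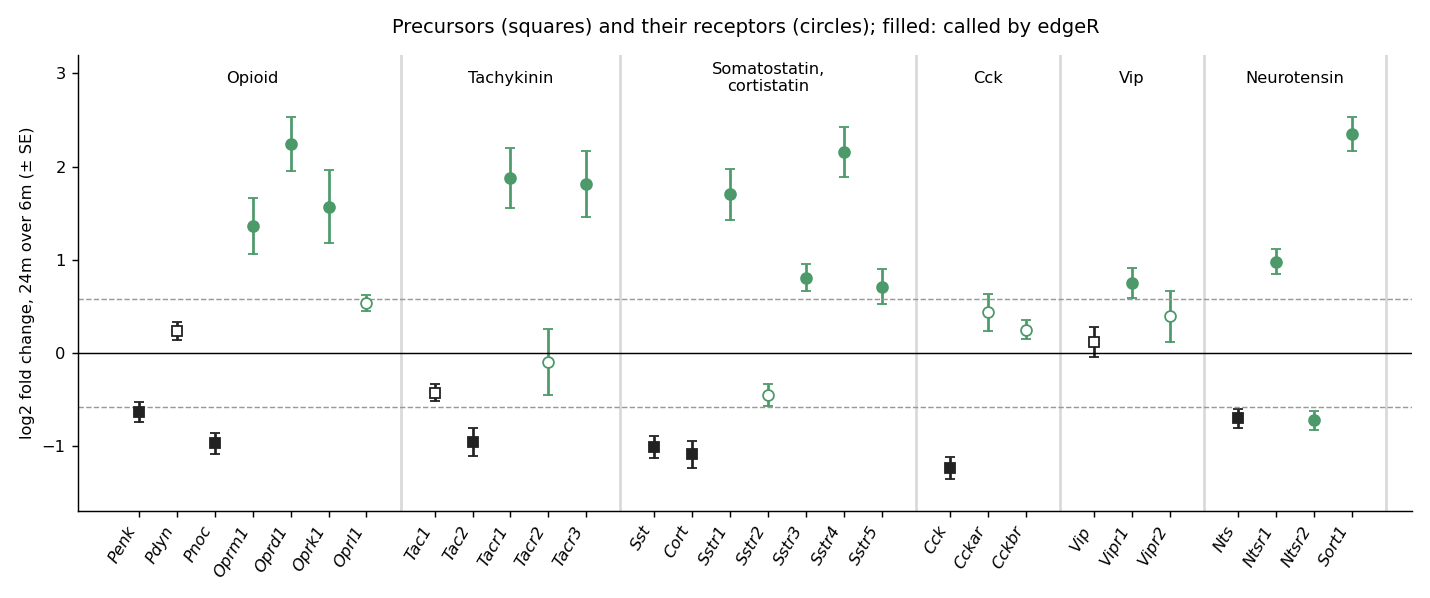
Log2FC of 24m over 6m ± SE (y axis) for precursors (squares) and their receptors (circles), grouped by peptide family, with filled symbols for called genes and dashed lines at the fold threshold. Called precursors are all below 0, and called receptors are all above 0 except Ntsr2.

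Of 7 genes that process precursors, 1 fell and 6 were not called, a share of lower calls under the 18.3% of all tested genes. This was Pcsk1n, an inhibitor of the convertase encoded by Pcsk1, which went from 3498 to 1680 CPM (log2FC -1.06 ± 0.15, edgeR, adjusted p = 0.0003). The convertases Pcsk1 and Pcsk2, the carboxypeptidase Cpe and the amidating enzyme Pam were not called. The median log2FC of the list, 0.05, gave no stable direction: it was -0.31 with the length trend removed and -0.22 with the GC trend removed, where Scg5, a convertase chaperone, was also called lower, and 0.22 without 24m replicate 1 and 0.28 under library totals alone, where Pcsk1 was called higher. Of 9 peptide-degrading enzymes, 2 rose, namely Mme, neprilysin, by 1.39 ± 0.30 (edgeR, adjusted p = 0.00296), and Ece1 by 1.44 ± 0.19 (adjusted p = 0.000229), and 7 were not called, a share of higher calls no larger than the 25.3% of all tested genes. Lower calls in this list came and went with the processing: Dpp3, Thop1 and Npepps were called lower with the length trend removed, beside 20.5% of all tested genes, Npepps also with the GC trend removed and without 6m replicate 2 or 24m replicate 4, Thop1 also without 24m replicate 1, and Anpep with DESeq2 on quantile-normalized counts.

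To set the peptides beside the cells that make them, log2 ratios to a marker of those cells were compared within each library. Each of 6 ratios was lower at 24m in all 4 libraries than in any 6m library (exact permutation test, two-sided, p = 0.0286 and 0.0286 after Benjamini-Hochberg adjustment over the 6 for each). This is the smallest p that the test allows. For Sst over Gad1 and Tac1 over Drd1 the outcome was fixed beforehand: peptide and partner each separated the ages, in opposite directions. Their p restates those separations and is no further result. Penk over Drd2, the dopamine receptor of indirect pathway neurons, went from 3.93 ± 0.06 (SD, n = 4) to 3.23 ± 0.16, a difference of -0.70. Cck over Slc17a7, a glutamate transporter of excitatory neurons, differed by -1.52, Sst over Gad1, an enzyme of GABA synthesis, by -2.15, and Vip over Gad1 by -1.01. The interneuron ratios depended on the partner. With 4 other interneuron markers, tried after the data were seen, Sst differed by -1.44 over Slc32a1 and -0.47 over Calb2 (exact p = 0.0286 each), but by -0.26 over Dlx6 (exact p = 0.4) and -0.06 over Pvalb (exact p = 0.8). The p of Sst over Slc32a1 was fixed in the same way, as Slc32a1 was higher at 24m without overlap. Vip differed by -0.30 over Slc32a1 (exact p = 0.171) and in the opposite direction over Calb2 (0.67, exact p = 0.0857), Pvalb (1.08, exact p = 0.0857) and Dlx6 (0.88, exact p = 0.0286). Tac1 and Pdyn over Drd1 differed by -2.20 and -1.54, and these too depended on the partner: over Ppp1r1b, another striatal marker, Tac1 differed by -0.21 (exact p = 0.229) and Pdyn by 0.45 (exact p = 0.0857).

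The partners moved themselves. Drd1 rose by 1.82 ± 0.26, Gad1 by 1.16 ± 0.24 and Gad2 by 1.96 ± 0.29 (edgeR, adjusted p = 0.000353, 0.0024 and 0.000442), while Drd2 and Slc17a7 were not called. Of 19 interneuron markers 9 rose and 2 fell (Pvalb, with a log2FC of -0.89, and Dlx6, with -0.75), against 25.3% of all tested genes higher and 18.3% lower, with a median log2FC of 0.49, and their summed level ran from 1254 to 1589 CPM at 6m and from 1257 to 1459 CPM at 24m. Of 12 striatal markers 3 rose and 1 fell, with sums of 815 to 947 and 737 to 926 CPM, and of 10 excitatory markers 6 rose and 4 were not called. The Pvalb libraries overlapped between ages, and its adjusted p in edgeR was 0.0501 with library totals alone and 0.0526 to 0.0806 without 6m replicate 1 or 4 or 24m replicate 2, 3 or 4, so the call did not hold there, and Dlx6 was not called with library totals alone or with the length trend removed. In the hypothalamus list, whose cells also make several of these peptides, 4 genes fell (Oxt, Pomc, Hcrt and Pmch) and 7 were not called. These 4 genes encode neuropeptide precursors themselves, and Pomc overlapped between ages. The non-peptide markers Hdc, Nkx2-1, Otp, Nr5a1 and Gsx1 were not called (log2FC -0.45, -0.02, -0.03, 0.66 and 0.25). Sums of the hypothalamus list were 149 to 192 CPM at 6m and 62.4 to 144 CPM at 24m. The olfactory bulb list had 3 of 9 genes that fell (Doc2g, Lbhd2 and Th) and 2 that rose, with sums of 108 to 232 and 81.8 to 154 CPM. Doc2g overlapped between ages, with 22.8 to 113.5 CPM at 6m and 8.15 to 35.1 CPM at 24m. Of 10 astrocyte markers 7 rose and 1 fell, and of 10 microglia and 10 oligodendrocyte markers 3 each rose and 7 each were not called. Of 8 cerebellum markers 4 rose and 4 were not called, and of 10 endothelial and 10 general neuron markers 2 each rose and 2 each fell. The shares of higher calls in the striatal, microglia and oligodendrocyte lists were close to that of all tested genes. No marker was at 0 in every library, and the part of these lists in the results on peptides was not tested.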

How the data were processed

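The authors trimmed reads with Trim Galore 0.4.11, aligned them to GRCm39 with HISAT2 2.1.0 and counted them per Ensembl gene, and the deposited table holds raw counts per gene and library, neither normalized nor pooled. Here, Ensembl identifiers were given GENCODE symbols, and genes in which at least 4 of the 8 libraries held over 5 counts were tested by edgeR 4.0.16 (quasi-likelihood test, TMM factors, age as the only term) in R 4.3.3, in place of the authors' DESeq2 on counts normalized by quantiles and then by row medians; the alternative on quantile-normalized counts leaves out the row median step. P-values were adjusted over all tested genes. SE was |log2FC| over the square root of F. Log2 CPM used a prior count of 2. Alternatives used DESeq2 1.42.0 and limma 3.58.1, other scalings, filters, length and GC trends, thinned counts, a replicate block and each library left out. All 10 precursors were named, with called receptor, processing and degradation genes of at least 1 CPM and preset markers; Sstr2, Sstr5, Cckar, Cckbr, the processing enzymes, Dpp3, Thop1, Npepps, Anpep and the other markers were named after their values were seen. Members and lists were chosen with earlier results of these data known. Strand and multimapping settings were not given in the sources used here.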

Additional observations from a re-analysis of the deposited data

How the results depend on the processing

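The count of precursors called lower stayed at 7 under RLE factors, DESeq2, limma-voom, both other filters, thinned counts, removal of mitochondrially encoded genes and a replicate block, and was 5 with library totals alone, 6 with DESeq2 on quantile-normalized counts, 8 with the GC trend removed, and 3 with the length trend removed, with or without the replicate block. Where the count stayed at 7, from 15.5% to 18.9% of all tested genes were called lower. In the other settings these shares were 10.4%, 23.3%, 22.2% and 20.5%, or 20.9% with block and length. Leaving out single libraries gave 6 to 7 and a median log2FC from -0.86 to -0.78. The median was -0.61 with library totals alone, -0.48 with the length trend removed and -0.48 with the replicate block and the length trend removed. With adjusted p alone, 1 precursor, Pdyn, was higher. The share of all calls that were higher was 58.1% and became 75.7% with library totals alone, 47.9% with quantile-normalized counts, 48.7% with the length trend removed and 49% with the GC trend removed. Signs reversed for Vip (-0.16 with quantile-normalized counts, -0.28 with the length trend removed, -0.23 with the GC trend removed, -0.27 with the block and length), for Adora2a (-0.092 with the length trend removed, -0.099 with block and length, -0.055 to 0.11 without single libraries), for Drd2 (-0.0030 to 0.15 without single libraries) and for Ppp1r1b (0.012 with library totals alone, 0.14 with quantile-normalized counts, 0.027 with the GC trend removed). Pdyn over Drd1 became 0.45 with the other partner, and Vip over Gad1 became 1.08, 0.67 and 0.88 with Pvalb, Calb2 and Dlx6, partners chosen after seeing the data. The median of the processing list reversed to -0.31 with the length trend removed and -0.22 with the GC trend removed, and ran from -0.042 to 0.216 without single libraries, being below 0 when 6m replicate 1, or replicate 3 or 4 of 24m, was left out. The cause was not tested. Replicate numbers did not pair the samples: deviations of same-numbered libraries correlated at 0.271, 0.143, 0.0778 and -0.348, and 2 of 8 libraries were closest to their own number.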
